A study of Mus musculus with 4 samples.

Results

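The genes described here were 32 genes of glycolysis and of the hypoxia response, taken by name from the gene column of the count matrices, where all 32 were found among 29835 genes. They were followed in ascites cells of mice carrying an ovarian cancer line, in 4 single-cell RNA libraries with 1 library per treatment. The line was ID8-Trp53-/-, Trp53-knockout cells grown from ovarian surface epithelium of the mouse, injected into the peritoneal cavity of immunocompetent C57BL/6 mice, which the study describes as female. All groups therefore shared the Trp53 deletion, the host strain and a labeled (iRFP) tumor line. Treatment started after 7 days of engraftment, was given 2 times a week and went on until ascites reached about 3 mL. Control mice received DMSO and an IgG2a isotype antibody. In the BTYNB group the isotype antibody was combined with BTYNB, an inhibitor of Igf2bp1, which binds and stabilizes mRNAs. The anti-PD-1 group received an antibody against the immune checkpoint receptor PD-1 (clone RMP1-14) with DMSO, and the combination group received BTYNB and anti-PD-1. The labels give 50 mg/kg of BTYNB and 100 ng of antibody per dose, whereas the methods of the study give other amounts. Cells of the animals of a group were pooled before capture, so the spread between animals was not recorded. Ascites volume ended the treatment in every group, so time under treatment cannot be told apart from the treatment itself.

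Glycolysis splits glucose into pyruvate in the cytosol. Hexokinases (Hk1, Hk2), phosphofructokinases (Pfkl, Pfkp), aldolases (Aldoa, Aldoc) and the enzymes from Tpi1 to Pkm carry out its steps. Ldha turns pyruvate into lactate, Slc16a3 exports lactate, and Pdk1 restrains the oxidation of pyruvate in the mitochondria. When oxygen is short, the prolyl hydroxylases Egln1 and Egln3 no longer mark the hypoxia-inducible factors for destruction, and the factors then switch on most of these genes together with Vegfa, Car9, Ndrg1, Bnip3, Adm and others. Many tumor cells and activated macrophages run a high rate of glycolysis even where oxygen is present.

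Cells were assigned by their UMIs (unique molecular identifiers, 1 per captured RNA molecule). Tumor cells had at least 5 UMIs of Krt7, Krt8, Krt18, Krt19 and Wt1 together and none of Ptprc. They were split by the summed UMIs of Cd24a, Gkn2 and Krtdap into Cd24a-set-high cells (at least 5) and Cd24a-set-low cells (at most 4). Macrophages had at least 5 UMIs of C1qa, C1qb and C1qc and at most 2 of the 4 keratins. Monocytes had at least 3 UMIs of Lyz2, at least 1 of Ly6c2 and at most 1 of the C1q genes. In the order control, BTYNB, anti-PD-1 and combination, the gates held 485, 433, 2771 and 631 Cd24a-set-high tumor cells, 6629, 3173, 8152 and 3738 Cd24a-set-low tumor cells, 242, 1605, 364 and 923 macrophages, and 28, 723, 22 and 94 monocytes. The same order of libraries is used for every set of 4 values below. Levels are CPM (UMIs of the gene scaled to the total UMIs of its gate), and a ratio is the log2 ratio of CPM + 1. With 1 library per group no treatment comparison could be tested, and the 95% intervals of levels, ratios and shares cover counting error only. The interval beside a median of members is an order-statistic interval over genes, which are not replicates. A gene was compared where both arms together held at least 50 UMIs and was counted as higher or lower from a 1.5-fold difference on.

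The libraries held 7858, 19247, 12163 and 7074 deposited cells with 80499877, 114600397, 89236522 and 78603888 UMIs. The BTYNB library stood apart: its smallest cell had 869 UMIs, against 3533 to 5115 in the others, and 12358 of its 18283 cells after quality filters fell in no gate. At most 4 cell barcodes were shared between any pair of libraries. The tumor gate held the mesothelial-type markers of the line, with Upk3b at 516 to 654 CPM in Cd24a-set-low cells, whereas Epcam was at most at 0.3 CPM there. Trp53 was still counted in Cd24a-set-low tumor cells, at 25.8 to 34.3 CPM, which does not check the genotype because a 3' tag outside a deleted part remains countable. The macrophage gate held Csf1r (422 to 583 CPM) and Adgre1 (122 to 200 CPM), both defining markers of macrophages, which were at most at 3.47 and 1.16 CPM in the low tumor cells. The monocyte gate held markers of other cells in all 4 libraries, as given with its results.

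Within the anti-PD-1 library, Cd24a-set-high tumor cells held more RNA of all 6 enzymes of lower glycolysis than the low cells of the same library. Pgk1, the first enzyme of glycolysis to yield ATP, stood at 1722 CPM against 420 CPM. Of the 31 members compared (Adm had too few UMIs), 14 were higher, against 8.95% of all compared genes, and 4 were lower, against 22.0% of all compared genes. The median log2 ratio of the members was 0.50, beside −0.16 over all genes. The interval of this median reached from −0.05 to 0.81, and genes of glycolysis as well as of the hypoxia response lay below 0.

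By role, all 6 enzymes of lower glycolysis were higher, with ratios from 0.74 to 2.03. Gapdh, which oxidizes glyceraldehyde phosphate, stood at 3045 against 1438 CPM (log2 ratio 1.08, interval 1.07 to 1.10). Eno1, the enolase, stood at 365 against 179 CPM (1.03, 0.99 to 1.07), and Pkm, the pyruvate kinase, at 698 against 352 CPM (0.98, 0.96 to 1.01). Of the 8 genes of glucose entry and upper glycolysis, 3 were higher. These were the glucose transporter Slc2a1 (96.7 against 38.3 CPM, 1.31, 1.25 to 1.42), Hk2 (196 against 98.2 CPM, 0.99, 0.94 to 1.06) and Aldoa. Hk1 and Pfkp, the other hexokinase and a phosphofructokinase, were at the lower end of the group with Hk1 at 35.3 against 45.0 CPM and Pfkp at 23.1 against 29.3 CPM.

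Around pyruvate, Ldha stood at 843 against 368 CPM (1.20, 1.17 to 1.22) and Pdk1 at 63.5 against 22.0 CPM (1.49, 1.43 to 1.64). Slc16a3, the lactate exporter of strongly glycolytic cells, was low in both, with 1.28 and 1.36 CPM from 33 and 77 UMIs. Pfkfb3 and Pfkfb4, which set the level of the phosphofructokinase activator fructose-2,6-bisphosphate, did not reach the fold, with ratios of −0.46 and −0.05. The oxygen sensors Egln1 (104 against 72.5 CPM) and Egln3 (404 against 309 CPM) were below the 1.5-fold limit as well.

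The other hypoxia response genes split. P4ha1 and P4ha2, subunits of the collagen prolyl hydroxylase, and Ankrd37 were higher, with P4ha1 at 107 against 60.8 CPM (0.81, 0.74 to 0.89). The carbonic anhydrase Car9 was lower, at 6.07 against 24.7 CPM (−1.86, −2.27 to −1.79). Ndrg1, a stress-response gene, stood at 193 against 324 CPM (−0.74, −0.79 to −0.70). Ddit4, an inhibitor of mTORC1 signaling, stood at 38.9 against 69.5 CPM (−0.82, −0.94 to −0.74), and the mitophagy receptor Bnip3 at 1.28 against 3.72 CPM (−1.05, −2.11 to −1.001). Vegfa (311 against 255 CPM), Mxi1 and Kdm3a lay inside the limit. Of the 10 compared genes of this role, 3 were higher and 4 lower, beside 8.95% and 22.0% of all compared genes. Over all 31 compared members the 4 lower ones were under that background share, and Bnip3 had a low level in both groups. The glycolytic enzymes and the wider hypoxia response genes thus did not all differ in the same direction in these cells.

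**Figure D1:**
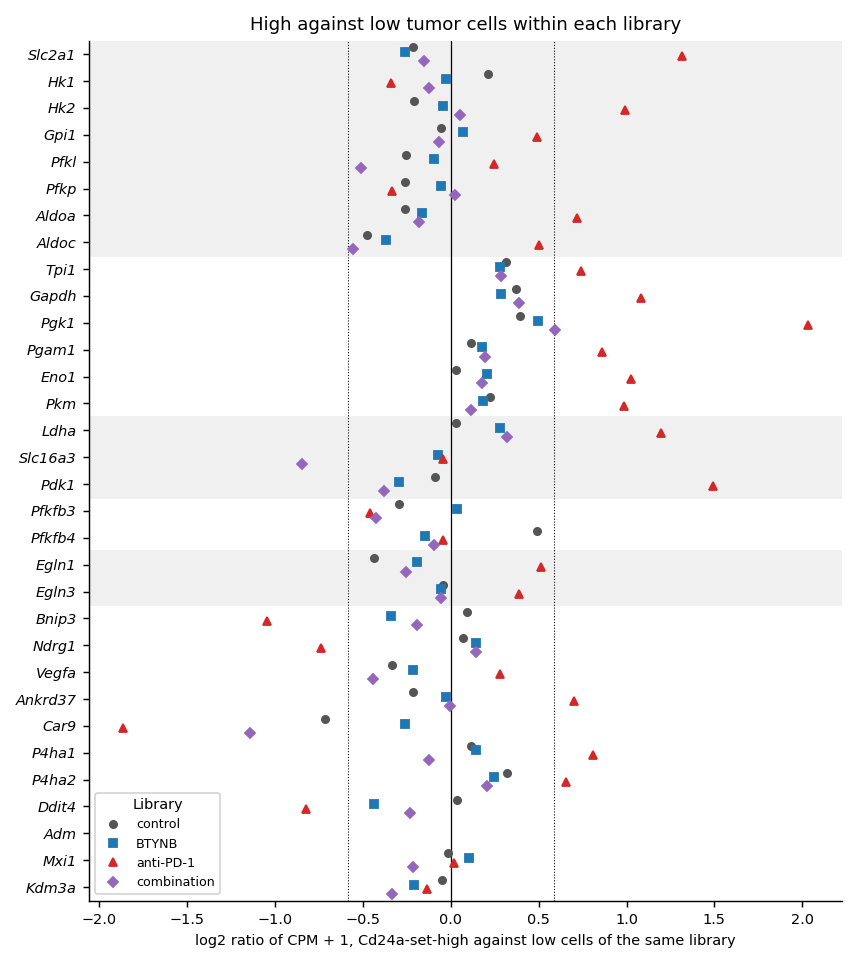
Log2 ratio of CPM + 1 of each gene in Cd24a-set-high against Cd24a-set-low tumor cells of the same library, with 1 symbol per library, dotted lines at 1.5-fold and shaded bands for the roles; each point is 1 pair of summed counts without replicates, and genes under 50 UMIs have no point. The anti-PD-1 points of Pgk1 (2.03), Pdk1 (1.49) and Slc2a1 (1.31) lie far to the right of those of the other libraries, and that of Car9 (−1.86) lies to the left.

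The promoters of 6 of these genes are shown because their genes stand at the ends of the patterns described: Pgk1, Pdk1 and Ldha among the higher genes, Car9 among the lower, and Bnip3 and Slc16a3 as genes of the macrophages (below). Windows run from 250 bases before to 50 bases after the RefSeq transcription start, are 300 bases long, are written 5′ to 3′ along the gene's own strand and carry coordinates of GRCm38.p6, not of the GRCm39 build of the counts. Capitals mark the hypoxia response element cores ACGTG and GCGTG on either strand (CACGT and CACGC on the printed one), and overlapping matches such as CACGTG count 2 times.
Pgk1 (chrX:106186850-106187149, + strand): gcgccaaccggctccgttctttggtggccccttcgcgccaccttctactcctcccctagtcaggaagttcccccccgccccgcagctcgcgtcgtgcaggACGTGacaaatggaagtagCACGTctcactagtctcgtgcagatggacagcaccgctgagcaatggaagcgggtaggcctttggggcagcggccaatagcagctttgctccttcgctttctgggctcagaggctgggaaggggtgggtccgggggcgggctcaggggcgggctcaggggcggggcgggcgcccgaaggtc
Pdk1 (chr2:71872974-71873273, + strand): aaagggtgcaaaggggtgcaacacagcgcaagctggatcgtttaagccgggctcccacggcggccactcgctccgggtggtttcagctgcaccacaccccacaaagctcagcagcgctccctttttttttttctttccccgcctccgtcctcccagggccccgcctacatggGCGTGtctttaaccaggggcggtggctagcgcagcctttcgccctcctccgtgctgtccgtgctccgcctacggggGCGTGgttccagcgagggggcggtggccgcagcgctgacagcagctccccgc
Ldha (chr7:46845554-46845853, + strand): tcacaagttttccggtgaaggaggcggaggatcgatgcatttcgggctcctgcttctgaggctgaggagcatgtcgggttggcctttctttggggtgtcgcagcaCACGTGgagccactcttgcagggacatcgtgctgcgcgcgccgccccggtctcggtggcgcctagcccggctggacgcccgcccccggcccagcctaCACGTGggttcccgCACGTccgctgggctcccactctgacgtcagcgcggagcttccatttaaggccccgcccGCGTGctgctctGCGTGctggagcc
Car9 (chr4:43506776-43507075, + strand): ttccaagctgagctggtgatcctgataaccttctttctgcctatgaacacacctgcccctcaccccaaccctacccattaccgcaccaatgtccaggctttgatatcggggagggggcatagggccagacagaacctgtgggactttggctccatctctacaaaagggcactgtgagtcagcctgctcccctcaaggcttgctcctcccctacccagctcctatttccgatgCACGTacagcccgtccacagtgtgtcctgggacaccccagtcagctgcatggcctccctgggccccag
Bnip3 (chr7:138909457-138909756, - strand): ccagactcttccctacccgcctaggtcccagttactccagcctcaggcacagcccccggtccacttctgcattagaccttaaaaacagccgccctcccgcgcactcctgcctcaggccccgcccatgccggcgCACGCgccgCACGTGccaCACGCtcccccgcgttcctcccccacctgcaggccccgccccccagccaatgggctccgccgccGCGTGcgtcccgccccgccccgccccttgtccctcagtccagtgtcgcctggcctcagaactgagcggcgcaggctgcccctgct
Slc16a3 (chr11:120948817-120949116, + strand): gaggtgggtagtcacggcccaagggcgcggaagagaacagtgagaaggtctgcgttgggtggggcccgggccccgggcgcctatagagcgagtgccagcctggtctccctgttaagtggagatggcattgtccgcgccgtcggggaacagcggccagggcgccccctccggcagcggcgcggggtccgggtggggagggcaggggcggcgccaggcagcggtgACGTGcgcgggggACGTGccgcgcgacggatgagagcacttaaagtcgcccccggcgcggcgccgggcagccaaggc
Pgk1, Pdk1 and Slc16a3 held 2 matches each, Ldha 7, Bnip3 5 and Car9 1. A window was found for 31 members, and the first listed window of 24 of them (77.4%) held a match. The share was 43.8% over all 32851 windows and 61.8% over the 10773 genes that were compared in the tumor cells of this library and had a window. The median GC content was 64.7% in the members, 52.7% over all genes and 60.7% over the compared genes, and both cores contain a CG pair. Among the 14 members that were higher in Cd24a-set-high cells, 11 had a match in the first window (78.6%), and among the other 17 members 13 did (76.5%). The motifs therefore did not separate the members that were higher from the rest.

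In the 3 other libraries the same split of the tumor cells showed fewer members higher. In control, 0 of 30 compared members were higher (2.75% of all genes) and 1 was lower (7.23% of all genes), Car9. In BTYNB, 0 of 31 were higher (2.21%) and 0 lower (6.06%). In combination, 1 of 31 was higher (2.86%), Pgk1 at 359 against 237 CPM, and 2 were lower (11.4%), Car9 and Slc16a3, the latter on 2 UMIs in the high cells. The member medians were −0.03, −0.04 and −0.12, beside −0.08, −0.08 and −0.12 over all genes. With cells thinned to 5115 UMIs and the gates drawn anew on the thinned counts, these libraries held 103, 59 and 149 high cells. There 0 of 30, 1 of 27 and 1 of 28 members were higher and 5, 4 and 6 lower. The shares of all genes called at this depth were not computed, so these counts cannot be set against a background. The medians were −0.08, −0.10 and −0.27 beside −0.13, −0.17 and −0.19 over all genes. The high and low cells compared there were thus not those of the split with all UMIs. Pgk1 in Cd24a-set-high cells was at 368, 363, 1722 and 359 CPM, so the anti-PD-1 library alone lay apart while the others were within 10 CPM of each other. Gapdh behaved alike, at 1826, 1450, 3045 and 1555 CPM. Slc2a1 was at 29.5, 25.2, 96.7 and 22.3 CPM, Hk2 at 59.5, 63.6, 196 and 67.8 CPM, and Pdk1 at 13.01, 10.8, 63.5 and 7.23 CPM. For Ldha the 4 values were 345, 330, 843 and 283 CPM, for Pkm 316, 329, 698 and 257 CPM, and for Pgam1, the phosphoglycerate mutase, 536, 626, 1132 and 515 CPM. Among these genes the anti-PD-1 cells held the highest level in each case. Eno1 was the least separated of them, at 238, 168, 365 and 128 CPM. Ndrg1, in contrast, had its lowest level in the anti-PD-1 high cells, at 296, 228, 193 and 225 CPM, as did Ddit4 at 76.5, 53.5, 38.9 and 50.9 CPM. Car9 was at 6.86, 15.5, 6.07 and 8.34 CPM, so the anti-PD-1 and control values were close.

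The Cd24a-set-high cells of the 4 libraries were not alike in the genes that defined them. Gkn2 was at 925 CPM in the anti-PD-1 high cells and at most at 0.371 CPM in those of the other libraries, Cd24a was at 536 against 62.4 to 121 CPM, and Krtdap at 896 against 357 to 538 CPM. High cells also carried more UMIs than low cells in each library, with medians of 13983 against 9515, 26660 against 13753, 9112 against 6547 and 15810 against 10862.5. Cells were therefore also thinned to 5115 UMIs and grouped by the set UMIs left. In the anti-PD-1 library the summed level of 14 glycolytic enzymes (Hk1, Hk2, Gpi1, Pfkl, Pfkp, Aldoa, Aldoc, the 6 of lower glycolysis and Ldha) was 5496 CPM in cells with 0 set UMIs, 5912 CPM with 1, 8028 CPM with 2 to 4, 11314 CPM with 5 to 9, 12778 CPM with 10 to 19 and 12981 CPM with 20 or more. Pgk1 followed from 365 to 2102 CPM over the same groups. Ndrg1 went the other way, from 315 to 130 CPM, and Ldhb, the heart-type lactate dehydrogenase subunit, from 374 to 9.001 CPM. The summed enzymes stayed between 4053 and 5482 CPM in all groups of the other libraries that held 10 cells or more. Ldhb was lower in cells with 5 to 9 set UMIs there too, at 229 to 267 CPM against 364 to 406 CPM in cells with 0, but did not come near the anti-PD-1 value of 59.7 CPM in that group.

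**Figure D2:**
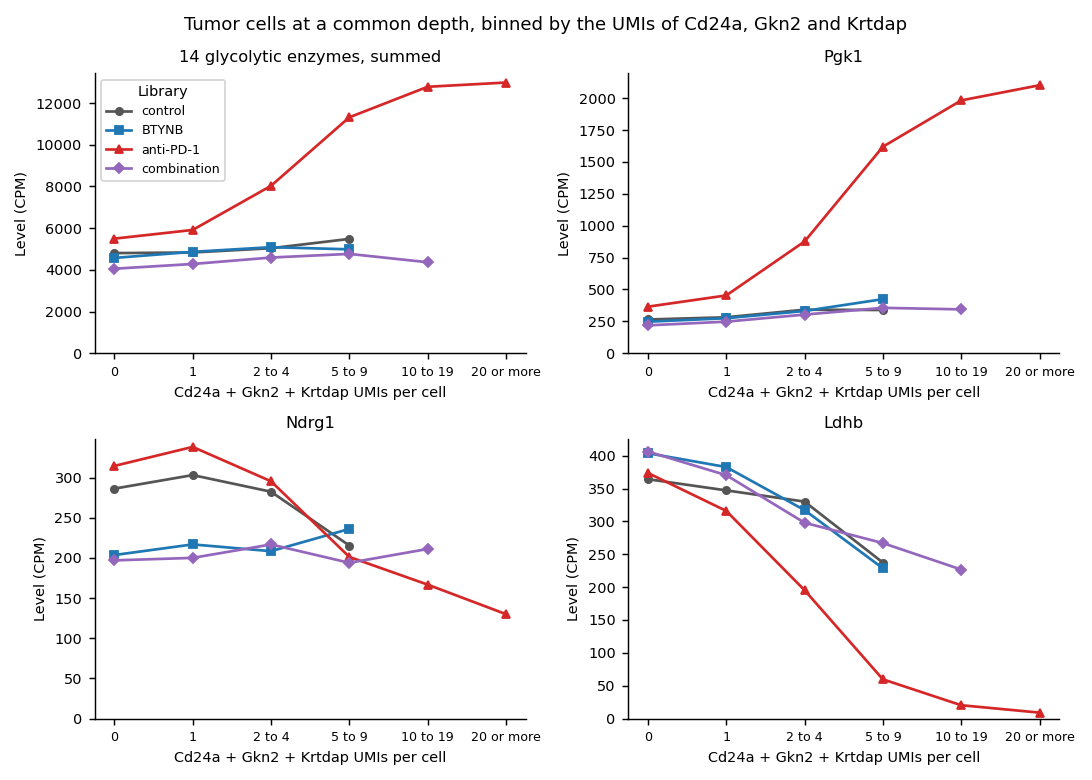
Levels (CPM) in tumor cells thinned to a common 5115 UMIs, grouped by the UMIs of Cd24a, Gkn2 and Krtdap left per cell, with 1 line per library; groups under 10 cells have no point and there are no replicates. The 14 summed glycolytic enzymes reach 12981 CPM in the anti-PD-1 library, and those of the other libraries reach at most 5482 CPM.

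The same was seen cell by cell. The 14 enzymes took a median of 1.21% of the UMIs of an anti-PD-1 Cd24a-set-high cell, against 0.517% in the low cells of that library and 0.455% to 0.525% in the high cells of the others. The anti-PD-1 high cells were themselves spread, from 0.632% at the 10th to 1.54% at the 90th percentile. Of the anti-PD-1 low cells, 247 of 8152 (3.03%, exact interval 2.67% to 3.43%) reached the median of the high cells. At the common depth the gates were drawn anew on the thinned counts, so cells that were high with all UMIs can be low there. Of these low cells, 336 of 6624 (5.07%, 4.56% to 5.63%) reached the median of the thinned high cells, 1.25%. The shares at the 2 depths are therefore not of the same cells. In the low cells of control, BTYNB and combination the shares were 0.0905%, 0.473% and 0.0803%, and at the common depth 0.0629%, 0.104% and 0.0938%. The thinning left out 282, 793, 2002 and 0 low cells as too shallow. With all UMIs, 0 of the high cells of control and combination reached the anti-PD-1 median, with exact upper limits of 0.758% and 0.583%. There 3 cells would equal 0.619% and 0.475%. In BTYNB 1 of 433 high cells reached the median.

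Genes of the same pathways outside the 32 also differed in the anti-PD-1 split. Of 32 compared genes of a further hypoxia response list, 9 were higher and 6 lower, against 8.95% and 22.0% of all compared genes, so the lower ones were not above the background. Higher were Angptl4, a lipoprotein lipase inhibitor (223 against 36.6 CPM), Hilpda, a lipid droplet protein (224 against 44.3 CPM), the oxidoreductase Ero1a (572 against 121 CPM) and Ndufa4l2 (75.2 against 17.9 CPM), a subunit-like protein of the respiratory chain. Lower was the collagen cross-linking enzyme Lox (1.36 against 10.1 CPM). Of 17 compared genes of other glycolysis isoforms, 0 were higher and 5 lower (8.95% and 22.0% of all genes), among them Ldhb (57.5 against 339 CPM), Pdk2 (8.05 against 24.6 CPM) and Pfkm (12.2 against 26.9 CPM). In the pentose phosphate pathway 1 of 7 was higher (8.95% of all genes), the transketolase Tkt (273 against 165 CPM). Of 9 compared genes of the factor machinery, 1 was higher and 2 lower (8.95% and 22.0% of all genes), counts close to the background. Hif1a was higher (128 against 69.7 CPM), and its partner Arnt (26.8 against 41.8 CPM) and the coactivator Crebbp (25.9 against 53.6 CPM) were lower. In the other libraries Ndufa4l2 was also higher in high cells, at 9.29 against 4.50, 9.81 against 4.55 and 6.39 against 3.29 CPM.

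Other properties moved with this split in the anti-PD-1 library. The 10 tumor and mesothelial-type markers summed to 1214 CPM in high and 2699 CPM in low cells, 5 fibroblast genes to 77.5 and 345 CPM, and 5 proliferation genes to 1908 and 1150 CPM. The 10 macrophage markers summed to 120 and 91.1 CPM, against 5756 CPM in the macrophages of that library, and none of the 10 was at 0 in either. The mitochondrial share was 10.7% in high and 12.2% in low cells. Their part in the differences was not tested.

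Between treatments, Cd24a-set-low tumor cells, the larger tumor group in each library, held somewhat more RNA of the members under anti-PD-1 than in control. The median log2 ratio was 0.24 (0.08 to 0.50), beside −0.02 over all genes. Of 31 compared members 7 were higher (3.28% of all genes) and 0 lower (1.54%). The 7 were spread over roles: Aldoc, Pgk1, Pdk1, the oxygen sensor Egln3, and Car9, P4ha1 and Vegfa of the hypoxia response. Egln3 was at 180, 176, 309 and 162 CPM in the low cells of control, BTYNB, anti-PD-1 and combination, so its level in the anti-PD-1 library stood alone (0.78, 0.75 to 0.81 against control). The growth factor Vegfa was at 151, 165, 255 and 143 CPM (0.76, 0.72 to 0.80). P4ha1 was at 35.5, 35.1, 60.8 and 30.1 CPM (0.76, 0.70 to 0.85), and Pgk1 at 279, 257, 420 and 237 CPM (0.59, 0.56 to 0.62). In each of these the anti-PD-1 library was the highest and the other 3 lay closer together. Pdk1 was at 13.9, 13.5, 22.0 and 9.68 CPM (0.62, 0.54 to 0.78). Aldoc, the second aldolase, was at 8.53, 14.1, 19.2 and 13.8 CPM (1.08, 1.02 to 1.32), and Car9 at 11.9, 18.7, 24.7 and 19.6 CPM (0.99, 0.92 to 1.18), so for these 2 genes the control library was the low one. Bnip3 had 3.72 CPM against 2.22 CPM in control and stayed under the limit. With stricter gates (at least 10 tumor marker UMIs and 0 set UMIs in low cells), the median was 0.16, beside −0.02 over all genes. Pgk1 (0.39) and Pdk1 (0.38) then no longer reached 1.5-fold. At the common depth, 1385 anti-PD-1 low cells had 2 to 4 set UMIs, against 659 in control. Those anti-PD-1 cells held 8028 CPM of the summed glycolytic enzymes, against 5496 CPM in cells with 0. Their part in the difference was not tested.

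With BTYNB alone the members stood about where they stood in control. The median was −0.03 (−0.12 to 0.07), beside 0.02, and of 31 members 2 were higher (4.27%) and 2 lower (3.32%). The higher ones were Aldoc and Car9. Eno1 was lower, at 233, 145, 179 and 113 CPM over the 4 libraries (−0.68, −0.72 to −0.64), and so was Ankrd37 at 5.81, 2.71, 7.07 and 2.42 CPM (−0.88, −1.40 to −0.81). Both were thus lower in the 2 libraries with BTYNB. Ndrg1 was at 282, 207, 324 and 203 CPM, again with the BTYNB and combination libraries below the others, though its ratio of −0.45 did not reach the limit.

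When BTYNB was added to anti-PD-1, the median was −0.49 (−0.66 to −0.27), beside 0.02 over all genes. Of 31 members 0 were higher (2.43%) and 11 lower (2.10%). They were Slc2a1, Pgk1, Eno1, Ldha, Pdk1, Egln3, Bnip3, Ndrg1, Vegfa, Ankrd37 and P4ha1. Ankrd37 differed most (−1.24, −1.86 to −1.24), then Pdk1 (−1.10, −1.34 to −1.02), P4ha1 (−0.99, −1.11 to −0.92) and Egln3 (−0.92, −0.97 to −0.89). Ldha was at 337, 272, 368 and 227 CPM, so the combination library held the lowest level of the 4. When anti-PD-1 was added to BTYNB, the median was −0.11 (−0.21 to −0.06), beside −0.01. Of 31 members 0 were higher (0.485%) and 0 lower (0.236%). The largest difference was that of Pdk1 (−0.44, −0.66 to −0.30), followed by Eno1 (−0.36), Pfkl (−0.32) and Pgam1 (−0.30). Thus 26 of 31 members lay below 0, none by as much as 1.5-fold. The count of all genes below 0 was not made, and their median was the −0.01 given above. In the low cells the 10 macrophage markers summed to 40.8, 54.9, 91.1 and 65.8 CPM, and 8 early response and heat shock genes to 4085, 5925, 3910 and 5445 CPM. Bnip3, at 3.72 CPM in anti-PD-1 low cells, was at 125 CPM in the macrophages of that library. The part of these in the differences was not tested. The anti-PD-1 library is an arm of both the comparison with control and that with the combination, so these 2 are not independent.

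**Figure D3:**
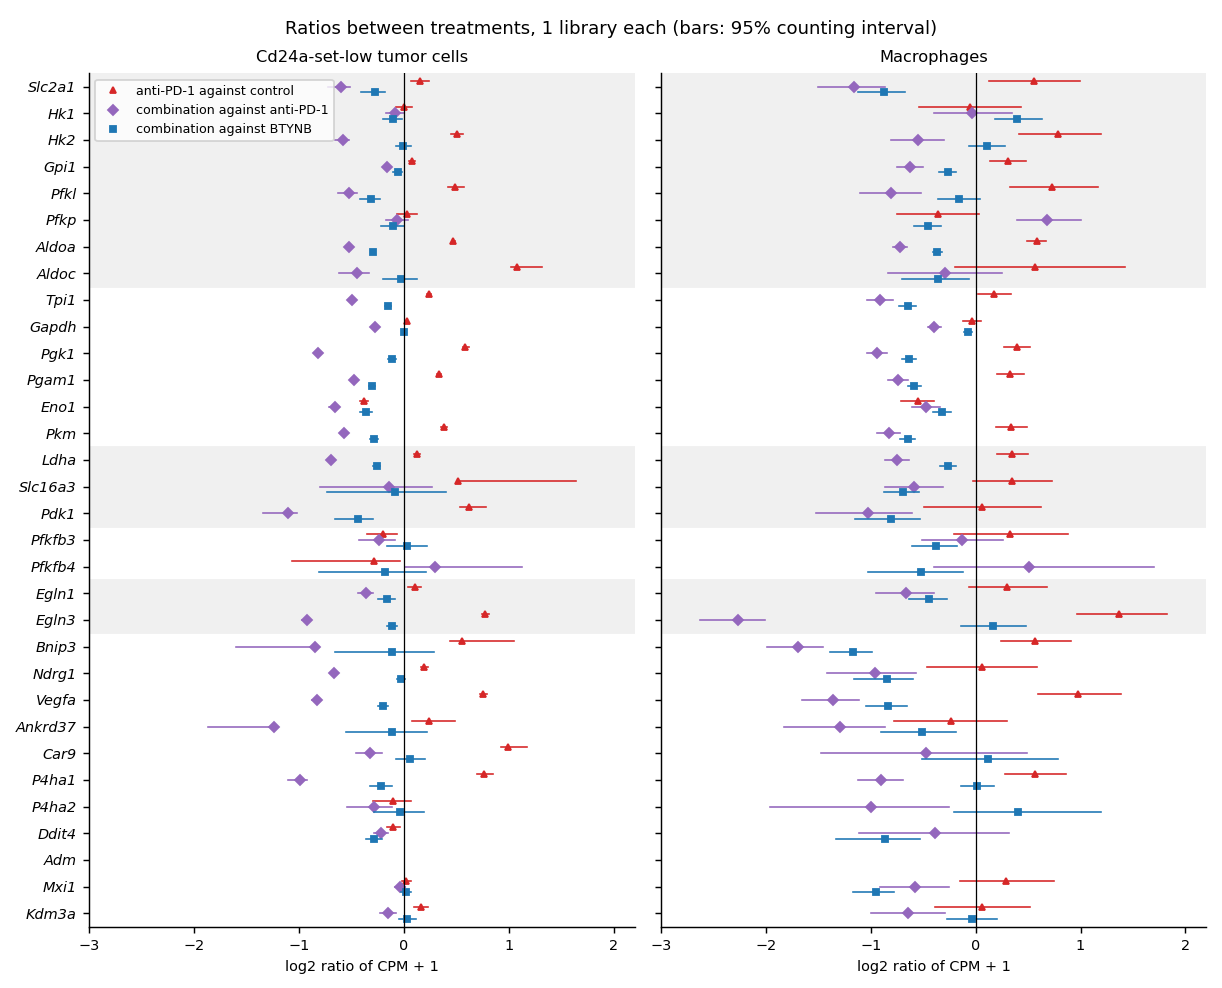
Log2 ratio of CPM + 1 between treatments for each gene in Cd24a-set-low tumor cells (left) and macrophages (right), with bars for the 95% counting interval of the plain CPM ratio and 1 library per treatment. Anti-PD-1 against control lies mostly to the right of 0 in both gates (medians 0.24 and 0.33), and combination against anti-PD-1 to the left (medians −0.49 and −0.72).

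Over all tumor cells, high and low together, the differences from the anti-PD-1 library were larger. The high cells were 6.82%, 12.01%, 25.4% and 14.4% of the tumor cells. Anti-PD-1 against control then had a median of 0.50 (0.13 to 0.72), beside −0.05, with 14 of 32 members higher (5.05%) and 0 lower (2.54%). Pgk1 was at 287, 279, 826 and 261 CPM (1.52, 1.501 to 1.545) and Aldoa at 878, 1026, 1485 and 838 CPM (0.76, 0.74 to 0.77). Combination against anti-PD-1 had a median of −0.66 (−0.96 to −0.26), beside 0.06, with 0 of 32 higher (3.88%) and 19 lower (4.80%). BTYNB against control gave −0.04, with 2 of 31 higher (3.28%) and 2 lower (2.67%), and combination against BTYNB gave −0.12, with 0 higher (0.390%) and 0 lower (0.214%). In the further hypoxia list the anti-PD-1 library also held the highest sum (2283, 2350, 2555 and 2169 CPM in low cells). There Ero1a was at 44.3, 44.1, 121 and 39.6 CPM and Ndufa4l2 at 4.50, 4.55, 17.9 and 3.29 CPM. In tumor cells with 0 set UMIs at the common depth, Ero1a was at 44.8, 45.1, 91.5 and 36.9 CPM. The other glycolysis isoforms summed to 949, 1003, 941 and 976 CPM in low cells and the pentose phosphate genes to 886, 687, 761 and 688 CPM, so neither list was highest in the anti-PD-1 library.

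**Figure D4:**
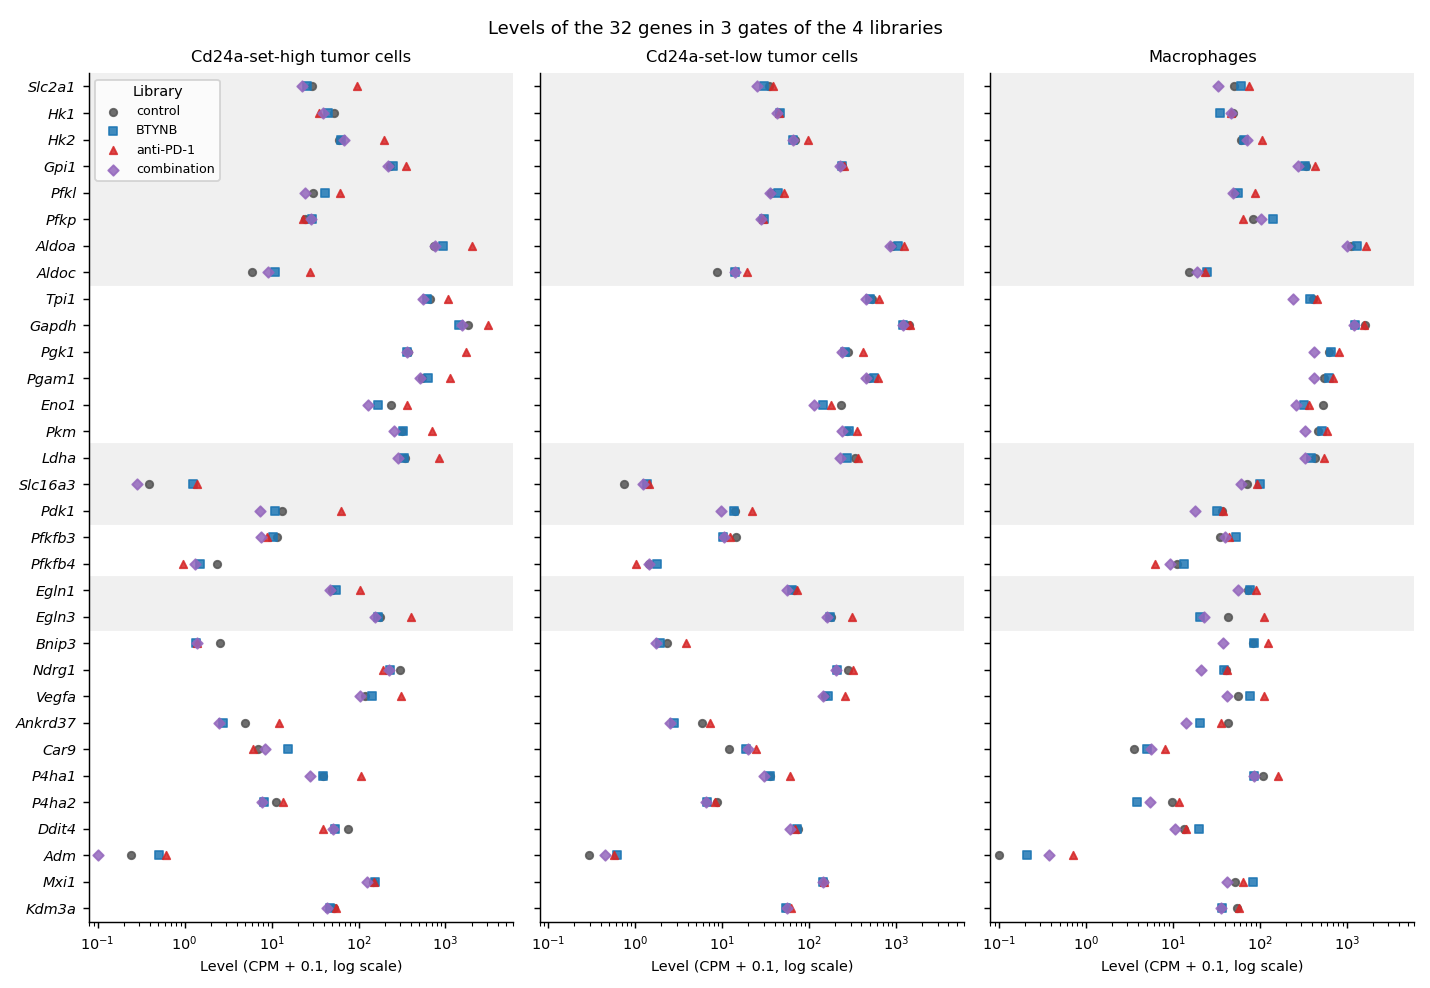
Level of each of the 32 genes in Cd24a-set-high tumor cells, Cd24a-set-low tumor cells and macrophages, on a log axis of CPM + 0.1, with 1 symbol per library and shaded bands for the roles; each point is the sum over the cells of 1 gate and library, without replicates. In the left panel the anti-PD-1 symbol of Pgk1 (1722 CPM) stands apart from the others (359 to 368 CPM). In Cd24a-set-low tumor cells Slc16a3 is at 0.647 to 1.36 CPM and Bnip3 at 1.62 to 3.72 CPM, and both are at 38.0 to 125 CPM in macrophages.

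In macrophages, the lowest levels of most members were found in the combination library. Combination against anti-PD-1 had a median of −0.72 (−0.91 to −0.55), beside −0.02 over all genes, with 1 of 31 members higher (7.74%) and 19 lower (9.42%). Combination against BTYNB had a median of −0.44 (−0.65 to −0.26), beside −0.00, with 0 of 31 higher (8.12%) and 11 lower (4.40%). Bnip3 was at 84.6, 86.4, 125 and 38.0 CPM, so the combination library held the lowest level by more than 1.5-fold (−1.16, −1.39 to −0.99 against BTYNB). Pgk1 was at 618, 657, 813 and 423 CPM, Slc2a1 at 51.0, 61.5, 75.3 and 33.1 CPM, and Pdk1 at 36.3, 32.3, 37.9 and 18.1 CPM. In all 3 the combination value was the lowest and the anti-PD-1 value the highest. Pkm was at 462, 517, 586 and 330 CPM, Tpi1, the triose phosphate isomerase, at 406, 382, 460 and 244 CPM, and Slc16a3 at 72.0, 99.3, 91.8 and 61.0 CPM. Mxi1, an antagonist of Myc, was highest after BTYNB, at 51.7, 82.9, 63.6 and 42.3 CPM. Pfkp differed from the rest, at 82.5, 143, 64.2 and 104 CPM, and was the 1 member that was higher in combination than in anti-PD-1 (0.68, 0.40 to 1.001).

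Anti-PD-1 against control in macrophages had a median of 0.33 (0.06 to 0.56), beside −0.06, with 4 of 27 members higher (5.95%) and 0 lower (6.81%). They were Egln3, Vegfa, Hk2 and Pfkl. Vegfa was at 55.9, 76.5, 111 and 42.5 CPM (0.97, 0.60 to 1.38) and Hk2 at 60.1, 66.1, 105 and 71.2 CPM (0.79, 0.42 to 1.19). Egln3 was at 43.3, 20.2, 113 and 22.7 CPM (1.37, 0.96 to 1.82). BTYNB against control had a median of 0.09 (−0.09 to 0.25), beside −0.04, with 3 of 30 higher (10.9%) and 3 lower (14.5%), shares no larger than the background. Higher were Pfkp, Mxi1 and Aldoc, and lower were Egln3, Ankrd37 and Eno1 (534, 326, 364 and 262 CPM). Eno1 and Ankrd37 were thus lower with BTYNB than in control in both macrophages and tumor cells. Under median-of-ratios scaling 5 of 30 were higher and 3 lower in this comparison.

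RNA of tumor cells was present in the macrophage gate and differed between libraries. Msln, Upk3b, Upk1b, Lgals7 and Igfbp5 stood at 8.27%, 2.14%, 14.8% and 5.86% of their summed level in tumor cells, and 5 fibroblast genes summed to 292, 7.56, 583 and 64.2 CPM. With that share of tumor RNA taken off, the medians of the 4 comparisons in the order given were −0.72, −0.42, 0.34 and 0.10, with 19, 12, 1 and 3 members lower. In macrophages with 0 keratin UMIs they were −0.75, −0.44, 0.37 and 0.11. Single genes that are high in tumor cells did depend on it: Ndrg1 was at 40.5, 38.8, 42.2 and 21.2 CPM before, and its ratio of combination against anti-PD-1 went from −0.96 to 2.91 after the subtraction, so no direction can be given for it. Other cell markers also differed between the macrophage gates. Monocyte markers summed to 1613, 4105, 1410 and 1813 CPM, B cell genes to 27.3, 220.04, 27.5 and 131 CPM, and proliferation genes to 1231, 554, 989 and 811 CPM. Their part in the differences was not tested. In the other lists, Hif1a was at 157, 284, 116 and 153 CPM in macrophages, highest after BTYNB. Hmox1, which degrades heme, was at 734, 454, 1254 and 582 CPM, and Ero1a was at 123 CPM after anti-PD-1 against 49.5 CPM in combination.

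In the monocyte gate only the BTYNB and combination libraries held 50 cells or more. Their comparison had a median of −0.58 (−1.10 to −0.29), beside 0.03 over all genes, with 2 of 29 members higher (18.9%) and 14 lower (16.9%). Slc16a3 was at 108 CPM after BTYNB against 28.2 CPM after the combination (−1.90, −2.61 to −1.32), Bnip3 at 118 and 30.6 CPM (−1.91, −2.59 to −1.36), and Pkm at 569 and 258 CPM (−1.14, −1.35 to −0.93). Both lactate export and mitophagy genes thus had levels near those of macrophages in BTYNB. Vegfa was at 125 and 46.5 CPM, and Slc2a1 at 68.6 and 26.9 CPM. Under median-of-ratios scaling 0 members were higher and 20 lower, and the median of all genes moved by −0.22. The gate did not hold the same cells in both libraries. Of the dendritic cell markers, Xcr1 was at 133 CPM after BTYNB, against 431 CPM after the combination, and Clec9a at 81.1 and 250 CPM. The 6 neutrophil genes summed to 8677 and 28.2 CPM, beside 7418 and 2941 CPM for 8 monocyte markers, and the tumor marker Upk3b was at 49.5 and 255 CPM. Their part in the differences was not tested. Without cells of more than 2 keratin UMIs, 704 and 64 cells remained, the median was −0.62, and 1 member was higher and 18 lower. Egln3 then had a ratio of −0.59 in place of 0.74. The 28 control and 22 anti-PD-1 cells were not compared: 13 of each also passed the tumor gate, and Upk3b was at 418 and 280 CPM there. Pgk1 was at 418 and 1045 CPM in these cells and Bnip3 at 49.6 and 31.9 CPM.

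The difference between cell types could be tested, since each of the 4 libraries held both macrophages and Cd24a-set-low tumor cells. edgeR's quasi-likelihood test with the library as a block found 20 of 31 members higher in macrophages at an adjusted p below 0.05 (29.9% of all 16275 genes) and 7 lower (36.4% of all genes). The median log2 ratio of the members was 0.71, beside −0.14 over all genes. All 3 genes of lactate and pyruvate fate, both Pfkfb genes and 6 of the 8 genes of upper glycolysis were higher in macrophages. Of the 10 compared genes of the wider hypoxia response, 3 were higher and 5 lower, beside the same 29.9% and 36.4% of all genes.

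Slc16a3 had the largest difference, with 72.0, 99.3, 91.8 and 61.0 CPM in macrophages and 0.647, 1.27, 1.36 and 1.13 CPM in the tumor cells (log2 ratio 6.42, SE 0.179, edgeR adjusted p = 1.04e-08). Bnip3 followed, with 84.6, 86.4, 125 and 38.0 CPM against 2.22, 1.84, 3.72 and 1.62 CPM (5.32, SE 0.186, edgeR adjusted p = 2.44e-08). For both genes the lowest macrophage value was above 10 times the highest tumor value. Pfkfb4 (3.12, SE 0.229), Ankrd37 (2.89, SE 0.168), Pfkfb3 (2.12, SE 0.202), Pfkp (1.93, SE 0.203) and P4ha1 (1.66, SE 0.111) came next, each higher in macrophages in all 4 libraries. Among the core enzymes, Eno1 (1.36, SE 0.108), Pdk1 (1.30, SE 0.145), Pgk1 (1.28, SE 0.121) and Slc2a1 (0.96, SE 0.147) were higher. Pkm (0.91), Aldoc (0.81), Pfkl (0.75), Gpi1, the glucose phosphate isomerase (0.72), Ldha (0.71) and Aldoa (0.52) differed less but in the same direction in all 4 libraries. Gapdh (0.31, edgeR adjusted p = 0.0153), Pgam1 (0.31, 0.0221) and Egln1 (0.40, 0.0149) passed the threshold narrowly and lost it under 7, 7 and 5 of 11 alternatives.

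The 7 of 31 members higher in tumor cells were under the background share of 36.4% of all genes. All of them but Tpi1 were of the hypoxia response. Bnip3, Ankrd37 and P4ha1 of the same response were higher in macrophages. Ndrg1 was at 282, 207, 324 and 203 CPM in tumor cells and 40.5, 38.8, 42.2 and 21.2 CPM in macrophages (−2.63, SE 0.158, edgeR adjusted p = 8.34e-07), with no overlap. Egln3 (−2.17, SE 0.232), Ddit4 (−2.03, SE 0.165), Car9 (−1.57, SE 0.162), Vegfa (−1.16, SE 0.136) and Mxi1 (−1.10, SE 0.173) were lower in macrophages in all 4 libraries. Tpi1 was slightly lower (−0.33, SE 0.111, edgeR adjusted p = 0.0270) and lost the threshold under 3 of 11 alternatives. Hk1, Hk2, P4ha2 and Kdm3a did not pass, with ratios of 0.18, 0.23, 0.05 and −0.12. In all, 19 members were higher in macrophages in each of the 4 libraries and 7 in none of them. The same counts over all genes were not made, so these have no background beside them. With the estimated tumor RNA taken off the macrophage counts, 18 members were higher and 7 lower, beside 4456 and 6601 of all 16272 genes.

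**Figure D5:**
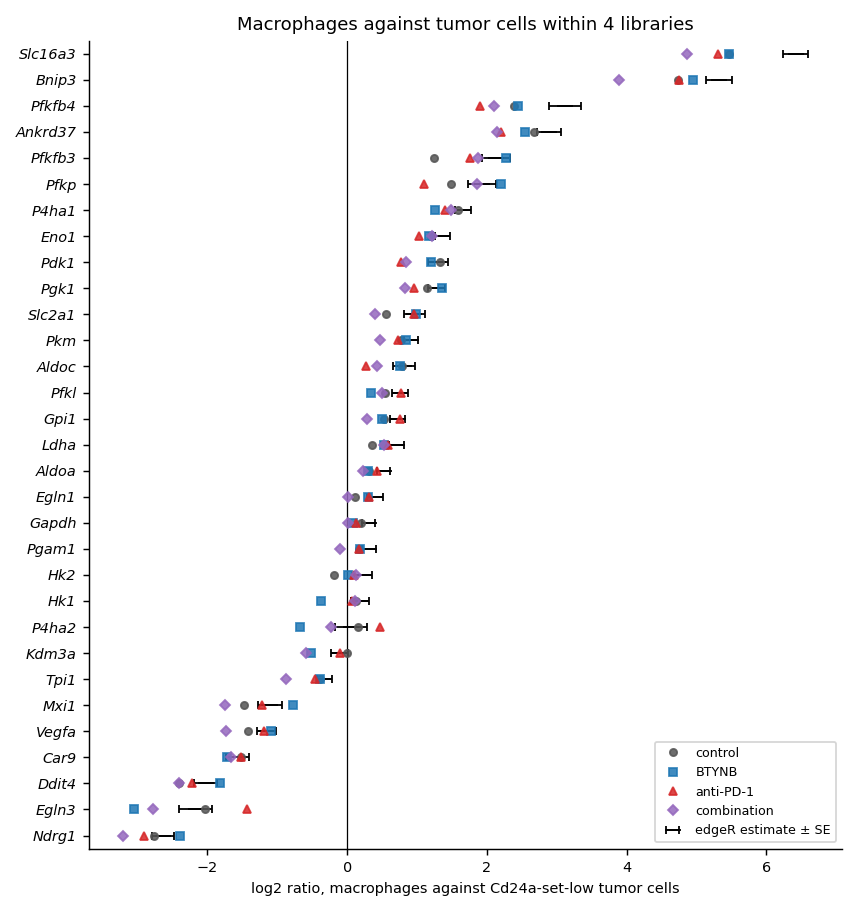
Log2 ratio of macrophages against Cd24a-set-low tumor cells for the 31 tested genes, sorted by the edgeR estimate (black, ± SE, 4 libraries, TMM scaling), with 1 symbol per library for the log2 ratio of CPM + 1 scaled to total UMIs, which lies lower than the estimate where levels are near 1 CPM. Slc16a3 (6.42) and Bnip3 (5.32) lead and Ndrg1 (−2.63) is last, with the symbols of all 4 libraries on the same side of 0 in each.

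The isoforms outside the list were split between the cell types as well. Of 20 tested genes of other glycolysis isoforms 4 were higher in macrophages and 11 lower, where 29.9% and 36.4% of all genes were. The hexokinase Hk3 (log2 ratio 7.48) and the monocarboxylate transporter Slc16a7 (7.25) were higher in macrophages, and Ldhb (−3.57), Pdk4 (−2.76) and Eno2 (−2.68) lower. In the pentose phosphate pathway 5 of 7 genes were higher in macrophages and 0 lower, led by Rpia (2.11). Of the factor genes, Hif1a was higher (1.47) and Epas1, the second alpha subunit, lower (−2.93). Of 33 tested genes of the further hypoxia list 15 were higher, among them Cxcr4 (5.71) and Hmox1 (4.21), and 8 lower, among them Plod2 (−3.55) and Angptl4 (−3.23), the latter count lying under the background share.

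Adm, which encodes the vessel-active peptide adrenomedullin, was the member without a usable level: it was at most at 0.612 CPM in any gate and library, with 0 UMIs in the monocyte gates of all 4 libraries and in the Cd24a-set-high cells of combination, where 3 UMIs would equal 0.278 CPM. Eno1, Aldoa and Gapdh have near-identical copies in the genome that can share reads. Eno1b was at 3.49 CPM and Eno1 at 179 CPM in anti-PD-1 low cells, and how the authors' pipeline split shared reads was not tested.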

How the data were processed

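Single cells of ascites from mice of 4 treatment groups were captured on the BD Rhapsody HT Express system and sequenced as whole-transcriptome libraries, with the animals of a group pooled. The authors processed the reads with the vendor's own analysis pipeline for this system on a cloud platform and deposited raw UMI counts per gene and cell, without normalization. The build was GRCm39 according to the submitters' processing notes, and the annotation is not given in the sources used here. A pipeline that drops reads shared by near-identical genes lowers the counts of such genes, and larger cells reach a gate's UMI minimum more often.

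Cells with fewer than 200 detected genes or over 33% mitochondrial UMIs were left out. Scrublet (scanpy 1.11.5) scored doublets and marked 0.0128%, 2.61%, 0.0333% and 0.0710% of the cells at its own threshold in control, BTYNB, anti-PD-1 and combination, which is too few in 3 libraries for the caller to have worked, so none were removed and an alternative left out the top 5% of scores. Libraries totalled 78603888 to 114600397 UMIs. UMIs were summed over the cells of a gate and library and divided by the gate's total (CPM). Ratios were log2 of CPM + 1. Their intervals (exact binomial, 95%) are of the plain CPM ratio without the pseudocount, so at low levels the ratio can lie at the edge of its interval or outside it. Floors are 3 UMIs. Medians carry order-statistic intervals over genes, which are not replicates.

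Macrophages and Cd24a-set-low tumor cells were compared with edgeR 4.0.16 in R 4.3.3 (quasi-likelihood test, TMM, library as block, Benjamini-Hochberg adjustment over all genes tested). The 4 libraries differ in treatment, which the block takes up. A p-value sets the gap between the cell types against the spread of that gap over these 4 libraries. The ratios and the edgeR test were run on simulated counts with 200 changed genes. In the data far more genes were called between the cell types, 4869 higher and 5920 lower of 16275. The simulation therefore does not check the scaling under so many differences. The members and lists were chosen with earlier results of these data known, so no pattern here is independent support for those results. Every member is named under its role. Levels in all libraries are given for those that differed most (12 in the tumor split, at most 8 in other comparisons). An exception is Bnip3 in Cd24a-set-high cells, given for the anti-PD-1 library only. Levels are also given for further members of the same role, chosen after their values were seen. At most 5 genes of another list are named. Promoter windows came from RefSeq (GRCm38.p6) and were used for sequence only.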

Additional observations from a re-analysis of the deposited data

Results flagged for a closer look

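Several comparisons went in opposite directions when the same agent was added with and without the other. Each contrast has 1 library per arm, so the difference between them was not tested. In Cd24a-set-low tumor cells the members' median log2 ratio was 0.24 for anti-PD-1 against control and −0.11 for combination against BTYNB. Over all tumor cells these medians were 0.50 and −0.12. In macrophages they were 0.33 and −0.44, and Vegfa alone had ratios of 0.97 and −0.84. Aldoc over all tumor cells had a ratio of 0.63 where BTYNB was set against control, and −0.72 where it was added to anti-PD-1.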

How the results depend on the processing

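The members' medians kept their direction in the comparisons of anti-PD-1 with control and of the combination with anti-PD-1 under every alternative run, with ranges of 0.14 to 0.31 and −0.57 to −0.43 in Cd24a-set-low tumor cells, 0.35 to 0.55 and −0.76 to −0.55 over all tumor cells, and 0.27 to 0.37 and −0.75 to −0.61 in macrophages. The Cd24a-set-high against low median of the anti-PD-1 library ranged from 0.37 to 0.66. In macrophages, the count of higher members ranged from 1 to 7 for BTYNB against control and from 2 to 9 for anti-PD-1 against control. Single ratios reversed in 2 cases: Ndrg1 in macrophages of combination against anti-PD-1 (2.91 with tumor RNA subtracted) and Egln3 in monocytes (−0.59 with at most 2 keratin UMIs). The cause was not tested. These alternatives, and macrophages without keratin UMIs, were chosen after seeing the data.

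Median-of-ratios scaling moved the median of all genes by 0.14 in the anti-PD-1 tumor split (17 members higher, 3 lower), by 0.11 in macrophages of BTYNB against control and by −0.22 in monocytes. It moved the share of higher among called genes from 28.9% to 43.3%, from 42.9% to 56.2% and from 52.8% to 32.3% there. The share also moved from 56.2% to 44.3% in low and from 55.1% to 44.5% in all tumor cells of BTYNB against control, from 44.7% to 30.5% in all tumor cells of combination against anti-PD-1, and from 26.7% to 39.0% and 20.03% to 32.7% in the splits of the BTYNB and combination libraries.

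Between macrophages and tumor cells, DESeq2 gave 20 members higher and 7 lower, beside 5278 and 5721 of its 28602 genes. The member median was 0.60 beside 0.43 over those genes (0.71 beside −0.14 over 16275 genes in edgeR). Leaving out 1 library gave 17 to 20 members higher and 6 to 7 lower, with medians of 0.59 to 0.66. At the common depth the splits of the control, BTYNB and combination libraries held 5, 4 and 6 lower members in place of 1, 0 and 2. The shares of all genes at that depth were not computed, so the change cannot be read as particular to the members. The gates were drawn anew on the thinned counts there, with 103, 59 and 149 high cells. Without TMM the median of all genes moved by −0.23, with 17 members higher and 7 lower, beside 4111 and 7164 of all 16275 genes. Hk1 then had a ratio of −0.0308. P4ha2 was at −0.17 without TMM, −0.11 without the gene filter, −0.0674 with tumor RNA subtracted, and between −0.154 and 0.280 with 1 library left out (−0.000864 without control, −0.154 without anti-PD-1). Neither gene was called. No paired analysis was possible because each treatment had 1 library, and the test between cell types already held the library as a block. Monocytes against macrophages was not run, since 2 libraries held 50 monocytes or more, fewer than the 3 required. Monocyte comparisons with the control or anti-PD-1 library gave no value for the same reason.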
